A study of Homo sapiens with 10 samples.

Results

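RNA polymerases I, II and III (Pol I, Pol II and Pol III), Mediator and Integrator are the machines that start, carry out and end transcription in the nucleus. Their subunit genes were taken by name: protein-coding symbols of GENCODE that begin with POLR1, POLR2 or POLR3 and a letter, or with MED or INTS and a number, matched to the deposited table through the Ensembl ID without its version. This gave 79 genes of the 63299 IDs in the table: 8 of Pol I, 15 of Pol II, 10 of Pol III, 30 of Mediator and 16 of Integrator. Of these, 74 passed the filter on low counts, and 16143 genes passed it in all.

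The study sequenced polyadenylated RNA from U2OS cells, a human osteosarcoma line, 48 h after transfection with a pool of siRNAs. The groups were siCtrl, the control knockdown, and siDDX41, the knockdown of the DEAD-box helicase DDX41, with 5 libraries in each. Both groups share the cell line, the medium and the transfection, and the design holds a single line, a single time and a single siRNA pool against DDX41, so effects of the pool on other targets cannot be told apart from those of losing DDX41. The comparison asks which of the transcription machinery's transcripts differ in level after the knockdown. The libraries held between 21807041 and 24896398 counts. No source used here states that replicates are separate cultures, so p-values measure the spread between these libraries, which may be technical.

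Markers of a mesenchymal bone tumour line were abundant. In siCtrl, the intermediate filament gene VIM was at 2465 ± 50.97, the collagen gene COL1A1 at 1875 ± 100.3, the matrix gene SPARC at 2807 ± 32.8 and the osteoblast regulator RUNX2 at 32.4 ± 1.25 CPM (a gene's counts relative to the library's total after TMM scaling; SD, n = 5). COL1A2, the partner chain of COL1A1, was near absent at 0.448 ± 0.203 CPM, and the phosphatase gene ALPL was at 5.01 ± 0.811 CPM. Several markers moved with the comparison: in siDDX41, VIM was at 2321, RUNX2 at 24.6 and ALPL at 3.08 CPM, all called down, SPARC was at 3181 CPM, called up, and COL1A1 was at 1766 CPM and not called. In siCtrl, the epithelial gene EPCAM was at 7.99 ± 0.447 CPM and CDH1 at 0.874 ± 0.0687 CPM. The blood gene PTPRC, the endothelial gene PECAM1 and the liver gene ALB had means below 1 CPM in both groups, and the T cell gene CD3E was listed at 0 in all 10 libraries.

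Pol I makes the ribosomal RNA precursor, Pol II makes messenger RNA and most small nuclear RNA, and Pol III makes transfer RNA, 5S ribosomal RNA and other short RNA. Some subunits belong to several of the enzymes, and the rest give each its identity. Mediator carries signals from activators to Pol II through head, middle and tail modules held on a scaffold, with a kinase module that docks reversibly. Integrator cuts the RNA of Pol II at small nuclear RNA genes and at paused polymerases, and carries a phosphatase that works on the polymerase.

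DDX41, the gene the siRNAs target, was at 49.1, 49.4, 47.3, 47.2 and 50.5 CPM in the siCtrl libraries. It was at 11.5, 13.7, 12.4, 11.2 and 12.3 CPM in the siDDX41 libraries, so all 5 lay below every control. The log2 fold change was -1.99 (SE 0.0491; edgeR adjusted p = 4.47e-24), with a 95% interval from -2.09 to -1.89. In bulk RNA, fewer cells with a transcript and less of it in each cell cannot be told apart, here or below.

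The subunit genes moved in both directions. Among the 74 tested members, 24 rose and 24 fell at an edgeR adjusted p under 0.01, beside 30.3% of all tested genes up and 32.1% down. In percent, the members' shares were 32.4% in each direction, close to those of all genes. Their median log2 fold change was -0.041, against -0.0014 over all tested genes, and their median absolute change of 0.18 was below the 0.28 of all genes. Past a log2 fold change of 0.25 there were 9 members up and 15 down, beside 21.1% and 25.4% of all tested genes. The groups of libraries did not overlap in CPM for 46 of the 74 members, beside 55.9% of all tested genes.

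By complex, the counts leaned different ways, beside 30.3% of all tested genes up and 32.1% down. In Pol I, 5 of 7 tested subunits rose and 1 fell, with a median log2 fold change of 0.19. In Pol III, 6 of 10 rose and 1 fell, with a median of 0.16. Pol II was mixed, with 5 of 13 up, 6 down and a median of -0.19. Mediator was mixed as well, with 8 of 29 up, 9 down and a median of -0.033. In Integrator, 7 of 15 fell and 0 rose in the edgeR fit, with a median of -0.10. At an unadjusted p under 0.05, 9 Integrator genes were lower and 1 higher, beside 5940 of all 16143 tested genes lower and 5811 higher. DESeq2 called 0 Integrator genes up and 5 down, and it also called fewer of all tested genes than edgeR in each direction. INTS4, lower with -0.10 (edgeR adjusted p = 0.00971), lost its call with DESeq2 (0.0324), with the replicate number as a block (0.0139), with DESeq2 size factors (0.0154), with no filter on low counts (0.0273), with a GC trend removed (0.0231), and without siCtrl replicate 1 (0.0172), siCtrl replicate 2 (0.0124), siCtrl replicate 3 (0.0220), siCtrl replicate 5 (0.0381), siDDX41 replicate 1 (0.0173), siDDX41 replicate 2 (0.0201), siDDX41 replicate 3 (0.0170), siDDX41 replicate 4 (0.0192) or siDDX41 replicate 5 (0.0245), with the adjusted p in brackets. Leaving out siDDX41 replicate 2 brought 1 Integrator gene, INTS13, to a call up, and leaving out siDDX41 replicate 3 took the Integrator genes called down from 7 to 4. No difference between complexes was tested, and the members are genes, not replicates.

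**Figure D1:**
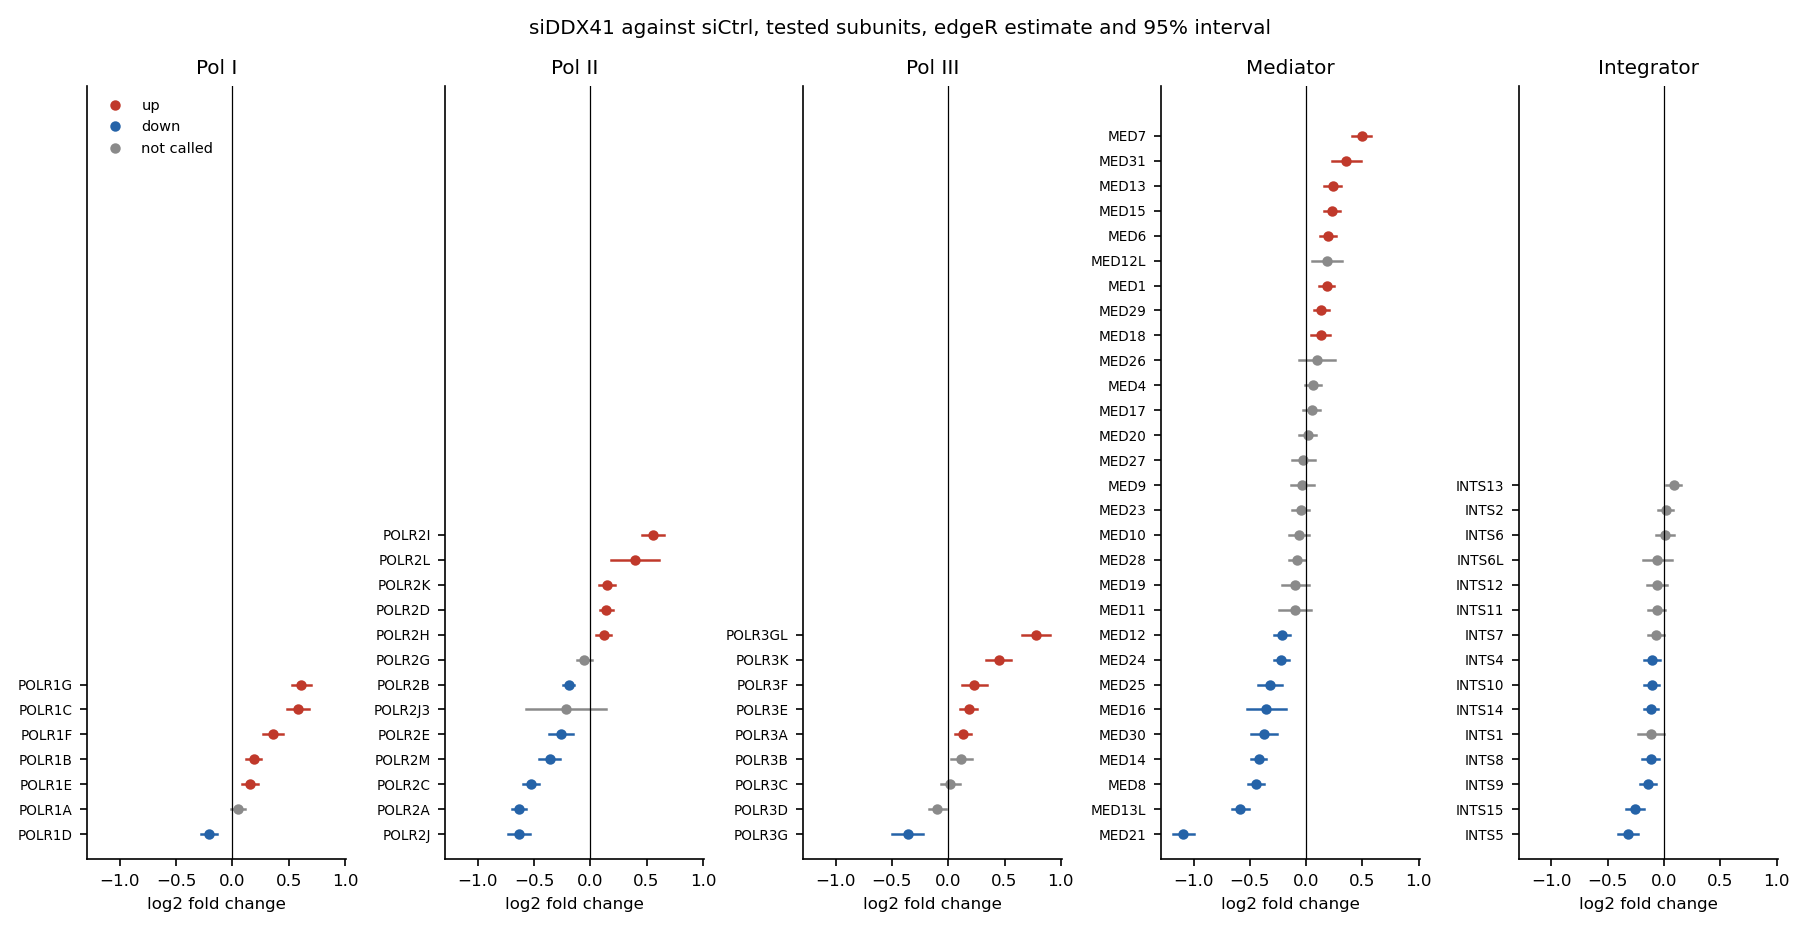
Log2 fold change of siDDX41 against siCtrl (x axis) for 73 of the 74 tested subunits, 1 panel for each complex, with points for the edgeR estimate, lines for its 95% interval, red for called up, blue for called down and grey for neither at an adjusted p under 0.01. Pol I and Pol III lie mostly right of 0, MED21 lies farthest left at -1.09, and the Integrator genes stay between -0.32 and 0.087.

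Of the 5 members outside the tested set, POLR1H, a small Pol I subunit, MED22, a head subunit of Mediator, and INTS3, the Integrator subunit that binds single-stranded DNA sensors, were listed at 0 in all 10 libraries. Genes that every cell uses were listed at 0 as well, among them RRN3, which recruits Pol I, and TAF9, GTF2H4 and NELFE of the Pol II machinery. So a listing at 0 is not read as absence of the transcript. Of the 10 nearest protein-coding genes, 8 were at 0 around POLR1H and 7 around MED22, against 14.02% of all protein-coding genes in the table. Around INTS3 it was 1 of 10. POLR2J2 was at 0.374 ± 0.155 CPM and the shared subunit gene POLR2F at 0.433 ± 0.141 CPM in siCtrl, too low for the test. The other subunits common to all polymerases, POLR2E, POLR2H, POLR2K and POLR2L, had siCtrl means of 108, 68.3, 46.3 and 47.9 CPM. The low value of POLR2F is likewise not read as the level of its transcript.

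Most Pol I genes were higher after the knockdown, while the gene of its largest subunit was not called. POLR1A, the largest catalytic subunit of Pol I, was at 119.6, 126, 134, 127 and 121 CPM in the siCtrl libraries and at 131, 130.2, 133, 125 and 130.2 CPM in the siDDX41 libraries. The groups overlapped, and the log2 fold change of 0.048 had a 95% interval from -0.017 to 0.11 (edgeR adjusted p = 0.178). With a GC trend removed in each library, an alternative chosen after seeing the data, it was called up (adjusted p = 0.00158). POLR1G, a subunit of the pair that helps Pol I start and elongate, was at 31.3, 28.9, 29.5, 28.3 and 31.8 CPM in the siCtrl libraries and at 46.4, 44.6, 46.9, 47.2 and 43.97 CPM in the siDDX41 libraries. All 5 siDDX41 libraries lay above every control. The POLR1G mean went from 29.96 ± 1.52 to 45.8 ± 1.44 CPM (SD, n = 5), a log2 fold change of 0.61 (SE 0.0412, edgeR adjusted p = 6.95e-14). POLR1F, a stalk subunit that meets initiation factors, was at 44.5, 47.3, 42.4, 44.4 and 41.9 CPM in the siCtrl libraries and at 57.00, 53.8, 59.4, 60.4 and 52.6 CPM in the siDDX41 libraries. The groups did not overlap, and the log2 fold change was 0.36 (SE 0.0420, edgeR adjusted p = 8.64e-09). POLR1B, the partner of POLR1A in the active centre, and POLR1E, the partner of POLR1G, rose by less, with log2 fold changes of 0.19 and 0.15. About 49.8% of the exon bases of POLR1G lie opposite exons of ERCC1. The libraries were made with a stranded kit, but the strand setting of the counting is not given in the sources used here. The value of POLR1G is therefore uncertain.

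The genes of the assembly platform that Pol I shares with Pol III went opposite ways. POLR1C, a platform subunit of both enzymes, was at 30.1, 29.7, 27.8, 28.1 and 30.7 CPM in the siCtrl libraries and at 48.5, 39.4, 43.5, 44.2 and 43.5 CPM in the siDDX41 libraries. POLR1D, its partner in that platform, was at 63.4, 60.7, 59.7, 63.5 and 61.8 CPM in the siCtrl libraries and at 52.5, 51.3, 53.5, 56.4 and 54.6 CPM in the siDDX41 libraries. Neither gene's groups overlapped. POLR1C rose, with a log2 fold change of 0.58 (SE 0.0469, edgeR adjusted p = 4.12e-12), and POLR1D fell, with -0.20 (SE 0.0348, edgeR adjusted p = 6.66e-06).

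Among the genes that belong to Pol II alone, 5 of 9 fell and 2 rose, beside 32.1% of all tested genes down and 30.3% up, including falls in the genes of its largest subunits. POLR2A, the catalytic subunit whose long tail is phosphorylated through the transcription cycle, was at 169, 167, 177, 173 and 168 CPM in the siCtrl libraries and at 106, 112, 113, 106 and 114 CPM in the siDDX41 libraries. Every siDDX41 library lay below every control. The POLR2A mean went from 171 ± 4.29 to 110.2 ± 3.98 CPM (SD, n = 5), a log2 fold change of -0.63 (SE 0.0300, edgeR adjusted p = 1.80e-17). POLR2C, a subunit of the assembly platform of Pol II, was at 108, 103, 98.99, 104 and 106 CPM in the siCtrl libraries and at 68.2, 73.05, 74.1, 70.9 and 74.1 CPM in the siDDX41 libraries. The groups did not overlap, with a log2 fold change of -0.53 (SE 0.0327, edgeR adjusted p = 1.12e-14). POLR2B, which closes the active centre with POLR2A, and POLR2M, which binds the enzyme and competes with initiation factors, fell with log2 fold changes of -0.19 and -0.36.

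POLR2J, the platform partner of POLR2C, was at 38.1, 39.2, 34.5, 35.5 and 37.7 CPM in the siCtrl libraries and at 21.4, 23.8, 25.9, 24.5 and 23.5 CPM in the siDDX41 libraries. The groups did not overlap, and the log2 fold change was -0.63 (SE 0.0485, edgeR adjusted p = 1.26e-12). POLR2J3 and POLR2J2 are near copies of POLR2J, and reads could be split between them, so the values of all these genes are uncertain. POLR2J3 was at 1.59, 1.18, 1.26, 1.16 and 1.25 CPM in siCtrl and at 1.10, 1.39, 1.21, 0.767 and 1.06 CPM in siDDX41, with overlapping groups and an edgeR adjusted p of 0.261. Per kilobase of exon, POLR2J was at 39.5 CPM, POLR2J3 at 0.404 CPM and POLR2J2 at 0.178 CPM in siCtrl. POLR2I, a small subunit at the jaw of Pol II that acts in start site choice and proofreading, was at 24.3, 24.8, 21.4, 23.5 and 25.2 CPM in the siCtrl libraries and at 38.04, 32.2, 35.7, 33.9 and 35.6 CPM in the siDDX41 libraries. It rose without overlap of the groups, with a log2 fold change of 0.56 (SE 0.0496, edgeR adjusted p = 3.66e-11). POLR2D, a stalk subunit, was the other gene of Pol II alone that rose, with 0.14. POLR2G, its stalk partner, was at 79.9 ± 2.01 and 77.00 ± 2.17 CPM and was not called. Exons of POLR2I lie in part opposite TBCB.

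Of the small subunits common to all polymerases, 3 of 4 tested rose and 1 fell, beside 30.3% of all tested genes up and 32.1% down. POLR2L, which holds the platform together, was at 43.4, 57.96, 40.5, 46.00 and 51.4 CPM in the siCtrl libraries and at 62.1, 58.5, 67.2, 59.8 and 67.2 CPM in the siDDX41 libraries. POLR2K, a zinc-binding subunit beside it, was at 44.8, 46.5, 47.1, 46.3 and 46.4 CPM in the siCtrl libraries and at 52.3, 51.4, 50.5, 51.1 and 50.96 CPM in the siDDX41 libraries. The groups did not overlap for either gene, although siCtrl replicate 2 was at 57.96 CPM for POLR2L and the lowest siDDX41 library at 58.5 CPM. Log2 fold changes were 0.40 for POLR2L (SE 0.0945, edgeR adjusted p = 0.00395) and 0.15 for POLR2K (SE 0.0338, edgeR adjusted p = 3.04e-04). The call of POLR2L was lost without siCtrl replicate 4 (0.0112), siDDX41 replicate 3 (0.0110) or siDDX41 replicate 5 (0.0127), with the edgeR adjusted p in brackets, and with the replicate number as a block (0.0131). That of POLR2K was lost once a GC trend was removed (0.0836). POLR2H rose with 0.12, and POLR2E, which touches DNA ahead of the active site, fell with -0.26. Exons of POLR2L lie in part opposite CD151.

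**Figure D2:**
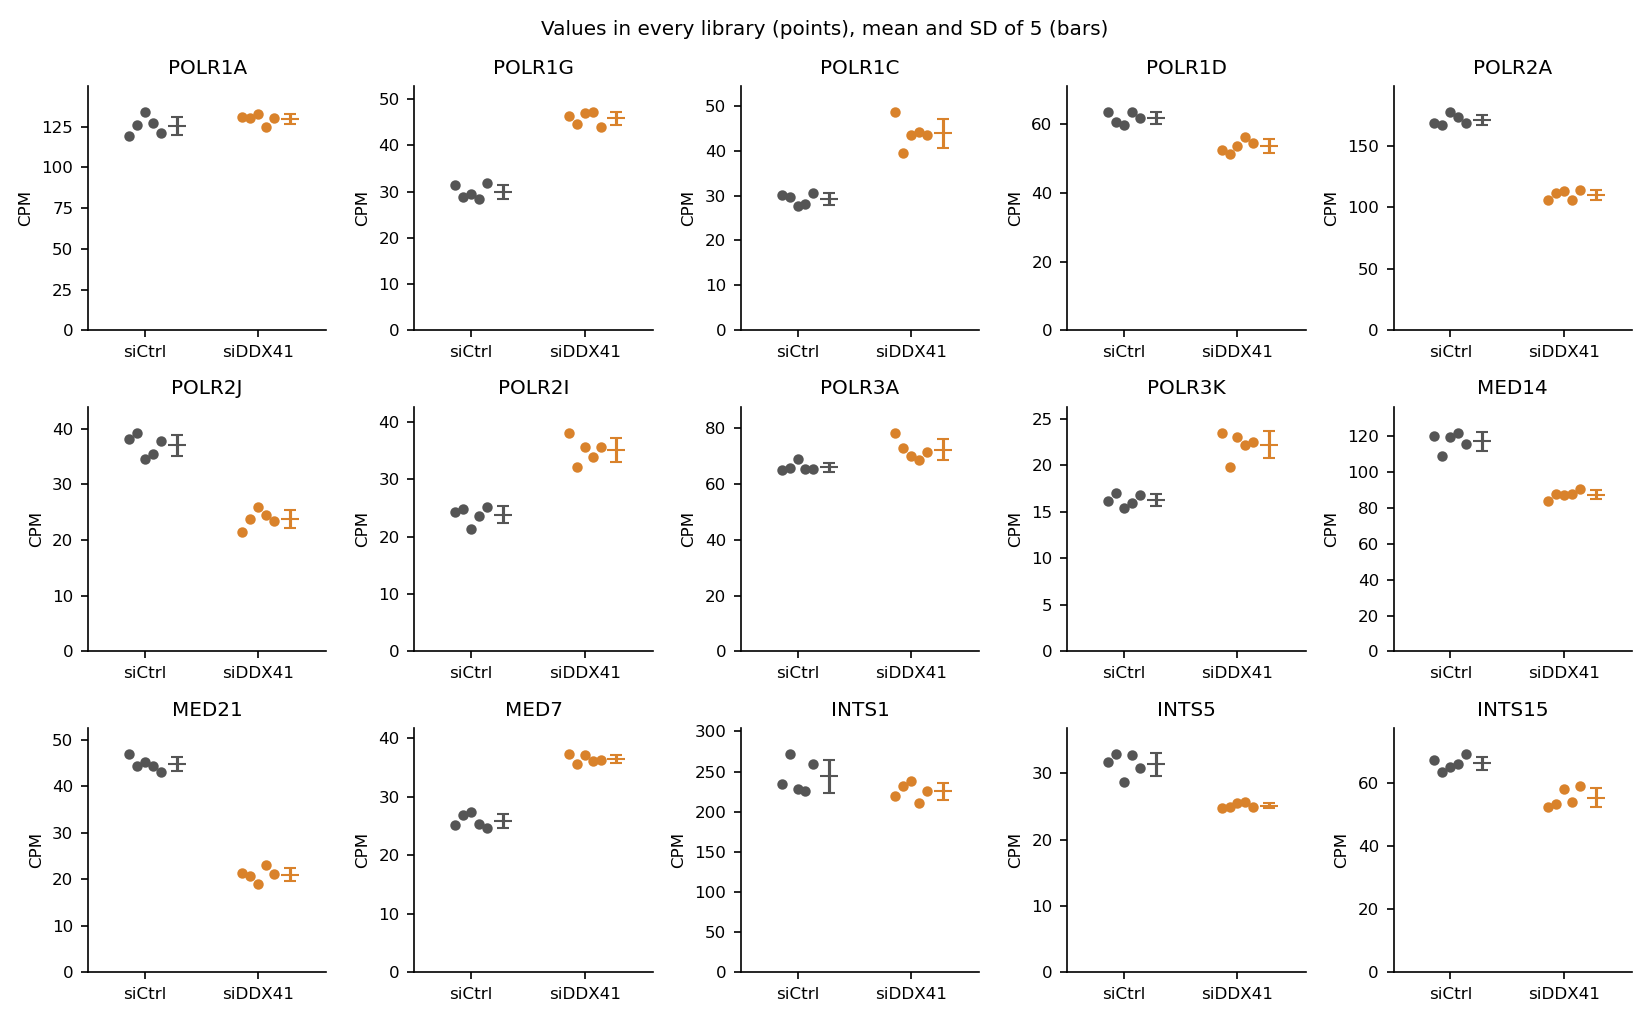
CPM (y axes, from 0) in each library for 15 subunit genes in siCtrl and siDDX41, with points for the 5 libraries of a group and bars for their mean and SD. POLR2A and MED21 separate the groups fully downward and POLR1G upward, while POLR1A and INTS1 overlap.

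Pol III genes rose in the main, and the paralogs that stand in for each other in the enzyme moved apart. POLR3A, the catalytic subunit of Pol III, was at 65.02, 65.8, 68.8, 65.4 and 65.3 CPM in the siCtrl libraries and at 78.3, 73.00, 70.2, 68.5 and 71.5 CPM in the siDDX41 libraries. The highest control lay above the lowest siDDX41 library, and the log2 fold change was 0.13 (SE 0.0354, edgeR adjusted p = 0.00187). Its call was lost without siDDX41 replicate 1 (0.0103), with the edgeR adjusted p in brackets. POLR3K, a small subunit needed for termination, was at 16.1, 17.1, 15.4, 15.96 and 16.8 CPM in the siCtrl libraries and at 23.5, 19.8, 23.1, 22.2 and 22.5 CPM in the siDDX41 libraries. The POLR3K mean went from 16.3 ± 0.662 to 22.2 ± 1.43 CPM (SD, n = 5), a log2 fold change of 0.45 (SE 0.0531, edgeR adjusted p = 1.25e-08). POLR3F, a subunit of the trimer that opens the promoter, was at 17.3, 17.3, 16.9, 16.4 and 14.95 CPM in the siCtrl libraries and at 21.4, 18.9, 18.8, 19.3 and 19.1 CPM in the siDDX41 libraries. The groups of both genes were apart, and POLR3F had a log2 fold change of 0.23 (SE 0.0543, edgeR adjusted p = 4.02e-04). POLR3E rose too, with 0.18. POLR3B, POLR3C and POLR3D were not called, with log2 fold changes from -0.10 to 0.12. With a floor of 5 CPM, POLR3D was called down (adjusted p = 0.00897).

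POLR3G and POLR3GL encode alternative versions of the same Pol III subunit, the former known for its high level in stem cells and many tumour lines. On the scale of CPM per kilobase of exon, POLR3G was at 3.68, 3.71, 3.44, 3.18 and 3.19 in siCtrl and at 2.81, 2.24, 2.74, 2.93 and 2.67 in siDDX41. POLR3GL was at 4.58, 4.67, 4.88, 4.96 and 5.27 in siCtrl and at 8.28, 8.78, 8.21, 7.76 and 8.74 in siDDX41 on that scale. The groups were apart for each gene, POLR3G lower and POLR3GL higher after the knockdown. POLR3G had a log2 fold change of -0.36 (SE 0.0688, edgeR adjusted p = 3.19e-05) and POLR3GL had 0.78 (SE 0.0613, edgeR adjusted p = 2.40e-12). As a share of the pair's summed level per kilobase, POLR3GL made up 55.4 to 62.3% in siCtrl and 72.6 to 79.6% in siDDX41. Shares depend on the length used: by the length of the canonical transcript they were 60.97 to 67.5% and 76.9 to 83.1%.

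**Figure D3:**
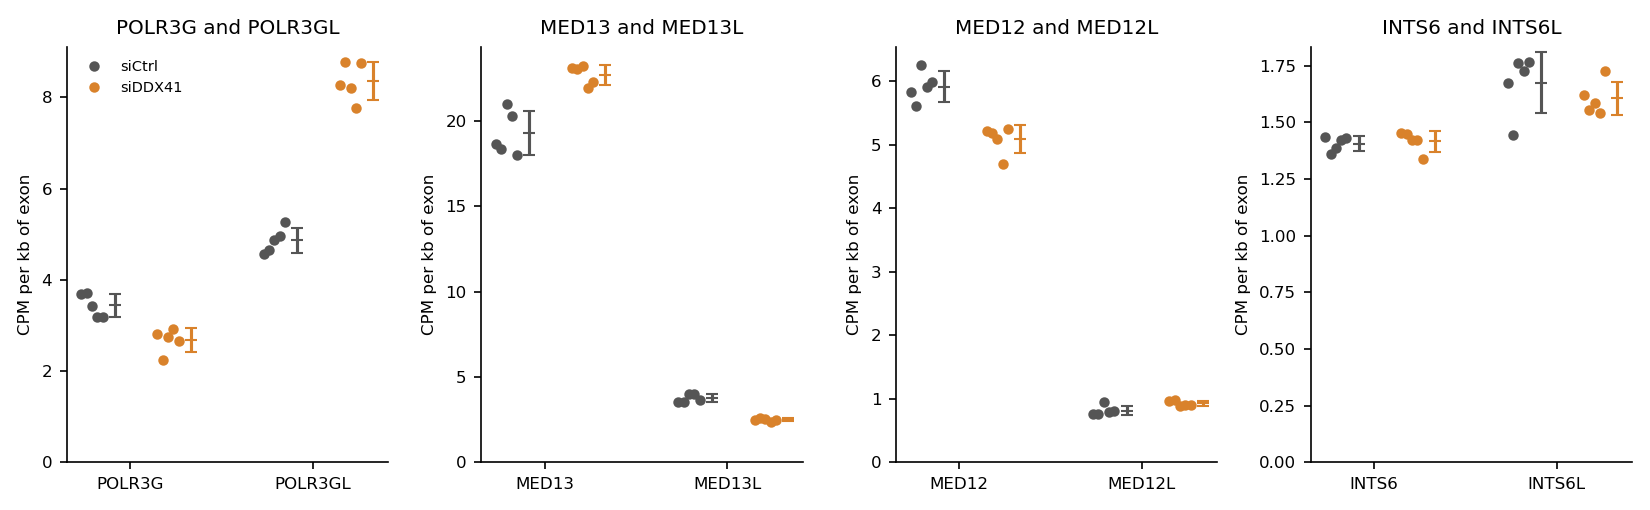
CPM per kilobase of exon (y axes, from 0) in each library for 4 pairs of paralogs, grey for siCtrl and orange for siDDX41, with the mean and SD of 5 libraries beside the points. POLR3GL rises from 4.87 to 8.36 while POLR3G goes from 3.44 to 2.68, and MED13 and MED13L also part, whereas INTS6 and INTS6L overlap.

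Start regions of these genes were read from the RefSeq promoter table (GRCh38.p14), in which 58 of the 79 symbols had an entry, with 66 windows of 300 bases. A search on both strands covered the E-box CACGTG, the ETS type motif CCGGAAG, the NRF1 core GCGCATGC, the YY1 core AAGATGGC, the box named CCAAT, the GC box with letters GGGCGG and the TATA box with letters TATAAA. The ETS type motif was in 23 of the 66 member windows, 34.8%, beside 10.3% of the 35116 windows in the table. It was in 11 of 22 windows of members called up, 3 of 15 of members called down and 5 of 24 of members not called. In the same order, the other motifs were in 14, 12 and 16 windows for the GC box, 6, 5 and 9 for the CCAAT box, 3, 1 and 2 for the E-box, 4, 2 and 0 for the YY1 core, 2, 0 and 2 for the NRF1 core and 1, 2 and 0 for the TATA box. GGGCGG was in 66.7% of member windows and 44.95% of all windows, and TATAAA in 4.55% and 11.5%. CACGTG was in 9.09% and 7.26%, CCAAT in 33.3% and 34.6%, GCGCATGC in 10.6% and 3.05%, and AAGATGGC in 9.09% and 2.89%. These shares were not tested, and a match describes the letters and is not a bound site.

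The windows of POLR1G (chr19:45406394-45406693, plus strand), POLR1C (chr6:43516839-43517138, plus strand) and POLR3GL (chr1:145964440-145964739, plus strand), which rose, and of POLR2A (chr17:7484116-7484415, plus strand), which fell, are printed 5′ to 3′ for comparison, with every match to the searched letters on either strand in capitals.
POLR1G: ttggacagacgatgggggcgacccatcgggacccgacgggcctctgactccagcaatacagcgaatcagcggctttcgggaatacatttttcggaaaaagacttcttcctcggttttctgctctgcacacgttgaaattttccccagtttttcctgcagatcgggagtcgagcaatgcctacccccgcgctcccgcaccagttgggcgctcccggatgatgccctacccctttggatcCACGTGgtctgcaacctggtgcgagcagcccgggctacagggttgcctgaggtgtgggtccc
POLR1C: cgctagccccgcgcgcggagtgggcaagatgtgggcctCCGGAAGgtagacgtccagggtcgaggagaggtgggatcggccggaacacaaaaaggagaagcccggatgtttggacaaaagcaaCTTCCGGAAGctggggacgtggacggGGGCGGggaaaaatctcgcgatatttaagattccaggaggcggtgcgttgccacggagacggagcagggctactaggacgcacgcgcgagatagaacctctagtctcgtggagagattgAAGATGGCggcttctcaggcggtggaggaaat
POLR3GL: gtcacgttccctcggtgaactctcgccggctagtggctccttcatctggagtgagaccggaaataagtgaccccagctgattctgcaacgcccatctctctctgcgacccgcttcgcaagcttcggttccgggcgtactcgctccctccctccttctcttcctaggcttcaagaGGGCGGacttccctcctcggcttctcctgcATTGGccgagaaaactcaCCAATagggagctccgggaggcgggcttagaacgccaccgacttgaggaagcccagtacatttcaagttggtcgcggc
POLR2A: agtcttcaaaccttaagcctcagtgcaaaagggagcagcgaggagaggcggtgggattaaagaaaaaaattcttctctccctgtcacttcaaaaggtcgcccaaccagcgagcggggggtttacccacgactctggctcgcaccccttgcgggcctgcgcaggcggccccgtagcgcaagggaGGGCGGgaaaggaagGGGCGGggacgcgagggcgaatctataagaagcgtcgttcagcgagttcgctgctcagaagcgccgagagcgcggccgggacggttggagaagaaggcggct
POLR1G holds the E-box, POLR1C holds CCGGAAG matches that overlap head to head on opposite strands as well as a YY1 core and a GC box, POLR3GL holds CCAAT on both strands and a GC box, and POLR2A holds GC boxes as its only matches.

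Mediator had the largest fall of all members, in a gene of its middle module. MED21, a hinge subunit of the middle module that meets Pol II, was at 46.9, 44.4, 45.2, 44.5 and 43.03 CPM in the siCtrl libraries and at 21.3, 20.6, 19.1, 23.1 and 21.1 CPM in the siDDX41 libraries. Every siDDX41 library lay under every control. The MED21 mean went from 44.8 ± 1.42 to 21.05 ± 1.46 CPM (SD, n = 5), a log2 fold change of -1.09 (SE 0.0457, edgeR adjusted p = 1.02e-18). MED7, the subunit that forms the hinge with MED21, was at 25.2, 26.9, 27.4, 25.3 and 24.7 CPM in the siCtrl libraries and at 37.3, 35.7, 37.2, 36.1 and 36.3 CPM in the siDDX41 libraries. The MED7 mean went from 25.9 ± 1.17 to 36.5 ± 0.701 CPM (SD, n = 5), a log2 fold change of 0.50 (SE 0.0416, edgeR adjusted p = 1.00e-11). MED21 and MED7 changed in opposite directions, each without overlap. MED31, a small middle subunit, was at 8.54, 8.86, 8.28, 8.43 and 8.16 CPM in the siCtrl libraries and at 10.99, 10.5, 10.5, 11.8 and 10.3 CPM in the siDDX41 libraries. It rose with 0.36 (SE 0.0641, edgeR adjusted p = 1.38e-05), although 58.4% of its exon bases lie opposite TXNDC17. MED1, the middle subunit that nuclear receptors bind, rose with 0.18, and the other 5 middle genes were not called. So 3 of 9 middle genes rose and 1 fell, beside 30.3% of all tested genes up and 32.1% down.

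The scaffold and the head gave further falls. MED14, the backbone that ties head, middle and tail together, was at 120.1, 109, 119, 122 and 115 CPM in the siCtrl libraries and at 83.9, 87.6, 87.4, 87.4 and 90.5 CPM in the siDDX41 libraries. The groups did not overlap. The MED14 mean went from 117 ± 5.14 to 87.4 ± 2.35 CPM (SD, n = 5), a log2 fold change of -0.42 (SE 0.0327, edgeR adjusted p = 1.72e-12). MED8, a head subunit, was at 65.1, 67.4, 64.9, 65.6 and 63.5 CPM in the siCtrl libraries and at 48.6, 45.5, 49.6, 47.3 and 49.1 CPM in the siDDX41 libraries. Its groups were apart, with a log2 fold change of -0.44 (SE 0.0344, edgeR adjusted p = 1.75e-12). In the head, 2 of 6 tested genes rose and 1 fell, beside 30.3% of all tested genes up and 32.1% down. MED6 and MED18 rose with 0.19 and 0.13, and 3 of the 6 were not called. The call of MED18 rests near the threshold (edgeR adjusted p = 0.00913) and was lost in the DESeq2 fit (adjusted p = 0.0133). In the edgeR fit it was also lost without siCtrl replicate 1 (0.0135), siCtrl replicate 2 (0.0104), siCtrl replicate 3 (0.0284), siCtrl replicate 4 (0.0310), siDDX41 replicate 1 (0.0215), siDDX41 replicate 2 (0.0103), siDDX41 replicate 4 (0.0199) or siDDX41 replicate 5 (0.0174), with the adjusted p in brackets, and with the replicate number as a block (0.0122), library totals (0.0162), no filter on low counts (0.0156) or a floor of 5 CPM (0.0172). In the tail, where many activators dock, 4 of 9 genes fell, beside 32.1% of all tested genes down and 30.3% up. These were MED16, MED24, MED25 and MED30, with log2 fold changes from -0.38 to -0.22, and MED15 and MED29 rose with 0.23 and 0.14. Exons of MED25 lie in part opposite PTOV1-AS1.

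In the kinase module, paralogs again moved apart. MED13 and MED13L are alternative linkers between the module and the rest of Mediator. On the scale of CPM per kilobase of exon, MED13 was at 18.7, 18.4, 21.01, 20.3 and 18.03 in siCtrl and at 23.1, 23.02, 23.2, 21.9 and 22.3 in siDDX41. MED13L was at 3.56, 3.56, 4.00, 4.00 and 3.66 in siCtrl and at 2.47, 2.62, 2.56, 2.39 and 2.48 in siDDX41 on that scale. Neither gene's groups overlapped: MED13 rose with a log2 fold change of 0.24 (edgeR adjusted p = 2.18e-06) and MED13L fell with -0.59 (edgeR adjusted p = 3.17e-14). MED13L made up 16.00 to 16.9% of the pair's level per kilobase in siCtrl and 9.65 to 10.2% in siDDX41. By the length of the canonical transcript this share was about 2 times as high, 34.3 to 35.8% and 22.7 to 23.8%, so its level depends on the length used, while it fell with either length.

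MED12, which activates the kinase of the module, was at 5.83, 5.61, 6.26, 5.91 and 5.98 CPM per kilobase in siCtrl and at 5.22, 5.19, 5.09, 4.70 and 5.24 in siDDX41. Its paralog MED12L was at 0.760, 0.760, 0.947, 0.796 and 0.816 CPM per kilobase in siCtrl and at 0.962, 0.975, 0.891, 0.909 and 0.902 in siDDX41. MED12 fell without overlap, with a log2 fold change of -0.22 (edgeR adjusted p = 1.98e-06), while MED12L overlapped, with 0.18 (edgeR adjusted p = 0.0115). MED12L passed the threshold without siCtrl replicate 3 (9.20e-04), with DESeq2 size factors (0.00838) and with no filter on low counts (0.00998), with the edgeR adjusted p in brackets. The kinases themselves, named outside the MED symbols, were also examined. CDK8 was at 6.45, 6.37, 6.69, 6.56 and 5.94 CPM per kilobase in siCtrl and at 7.14, 6.93, 7.13, 7.04 and 7.13 in siDDX41. CDK19 was at 6.44, 5.84, 6.47, 6.25 and 5.93 CPM per kilobase in siCtrl and at 4.99, 4.86, 4.51, 4.85 and 4.86 in siDDX41. CDK19 fell with a log2 fold change of -0.36 (edgeR adjusted p = 3.73e-09) and CDK8 rose with 0.14 (edgeR adjusted p = 0.00253), a call lost without siCtrl replicate 5 (0.0150). CDK19 made up 47.8 to 49.96% of that pair per kilobase in siCtrl and 38.7 to 41.2% in siDDX41, and 41.5 to 43.5% and 32.8 to 35.1% by canonical transcript length. None of these shares was tested.

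Integrator genes changed little, and those called were lower. Log2 fold changes of its 15 tested genes ran from -0.32 to 0.087. Of these, 12 were negative, beside 8100 of all 16143 tested genes. INTS1, the largest backbone subunit, was at 235, 272, 229, 226 and 260.1 CPM in the siCtrl libraries and at 219.7, 232, 238, 211 and 226 CPM in the siDDX41 libraries. The highest values were siCtrl replicates 2 and 5, the groups overlapped, and the log2 fold change was -0.12 with a 95% interval from -0.23 to -0.00348 (edgeR adjusted p = 0.0614). INTS1 was called down with the replicate number as a block (adjusted p = 0.00670), with no filter on low counts (6.34e-04) and with a GC trend removed (0.00257). INTS11, the endonuclease, was at 53.1, 56.4, 53.7, 51.1 and 54.8 CPM in the siCtrl libraries and at 53.1, 51.4, 54.3, 48.1 and 50.2 CPM in the siDDX41 libraries. Its groups overlapped too, with a log2 fold change of -0.065 (95% interval -0.14 to 0.013, edgeR adjusted p = 0.126), and the sign turned to 0.021 once a GC trend was removed. INTS9, the inactive partner of INTS11, was at 67.5, 64.5, 62.9, 63.6 and 60.9 CPM in the siCtrl libraries and at 56.5, 56.7, 58.2, 57.8 and 59.98 CPM in the siDDX41 libraries. These groups were apart, with -0.14 (edgeR adjusted p = 4.82e-04), a call lost with a GC trend removed (0.0205).

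In the phosphatase module, INTS5, a subunit of that module, was at 31.8, 32.9, 28.7, 32.7 and 30.8 CPM in the siCtrl libraries and at 24.8, 24.9, 25.5, 25.7 and 24.9 CPM in the siDDX41 libraries. The INTS5 mean went from 31.4 ± 1.71 to 25.2 ± 0.415 CPM (SD, n = 5), a log2 fold change of -0.32 (SE 0.0444, edgeR adjusted p = 2.37e-07). Its groups were apart. INTS8, which holds the phosphatase and has 20.7% of its exon bases opposite CCNE2, fell by less, with -0.12 (edgeR adjusted p = 0.00526). Its call was lost with DESeq2 (adjusted p = 0.0200) and, in the edgeR fit, with no filter on low counts (0.0104) or without siCtrl replicate 1 (0.0135), siCtrl replicate 3 (0.0156), siDDX41 replicate 1 (0.0208), siDDX41 replicate 2 (0.0186) or siDDX41 replicate 3 (0.0228). INTS6, which binds the phosphatase's regulatory subunit, was at 1.44, 1.36, 1.39, 1.42 and 1.43 CPM per kilobase in siCtrl and at 1.45, 1.45, 1.42, 1.42 and 1.34 in siDDX41. Its paralog INTS6L was at 1.67, 1.44, 1.76, 1.73 and 1.76 CPM per kilobase in siCtrl and at 1.62, 1.56, 1.58, 1.54 and 1.73 in siDDX41. Both overlapped between groups, with log2 fold changes of 0.010 and -0.060 (edgeR adjusted p = 0.834 and 0.409). INTS15, a recently named subunit of the arm, was at 67.4, 63.5, 65.3, 66.02 and 69.2 CPM in the siCtrl libraries and at 52.3, 53.5, 58.2, 54.1 and 59.1 CPM in the siDDX41 libraries. It fell without overlap, with -0.26 (SE 0.0375, edgeR adjusted p = 5.51e-07), and its arm partners INTS10 and INTS14 fell with -0.11 and -0.12. The call of INTS10 was lost without siCtrl replicate 4 (0.0154), siDDX41 replicate 3 (0.0111) or siDDX41 replicate 4 (0.0122), with the adjusted p in brackets. The arm subunit INTS13 had 0.087 (edgeR adjusted p = 0.0188) and was not called, but it passed the threshold without siDDX41 replicate 2 (0.00967).

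Summed over each complex's genes as CPM per kilobase of exon, Pol I was at 83.03 to 87.5 in siCtrl and 97.8 to 106 in siDDX41, and Pol III at 59.3 to 59.99 and 67.1 to 69.9. These ranges were apart and higher after the knockdown. Genes of Pol II alone were at 232 to 239 and 203 to 213, Mediator at 283 to 289.8 and 272 to 282, and Integrator at 172 to 177 and 161 to 165, each range lower in siDDX41 and apart from the controls. All Pol II members together, with the shared subunits, were at 338 to 363 and 328 to 345, with overlap. The subunits common to all polymerases were at 106 to 126 and 124 to 134, with overlap. The Mediator ranges lay close, with a lowest control of 282.9 and a highest siDDX41 library of 281.9. MED21 alone went from a mean of 12.3 to 5.80 CPM per kilobase, and without it the Mediator ranges would overlap. Such a sum is led by a few abundant genes, holds the genes listed at 0 and POLR2F near 0, and was not tested.

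**Figure D4:**
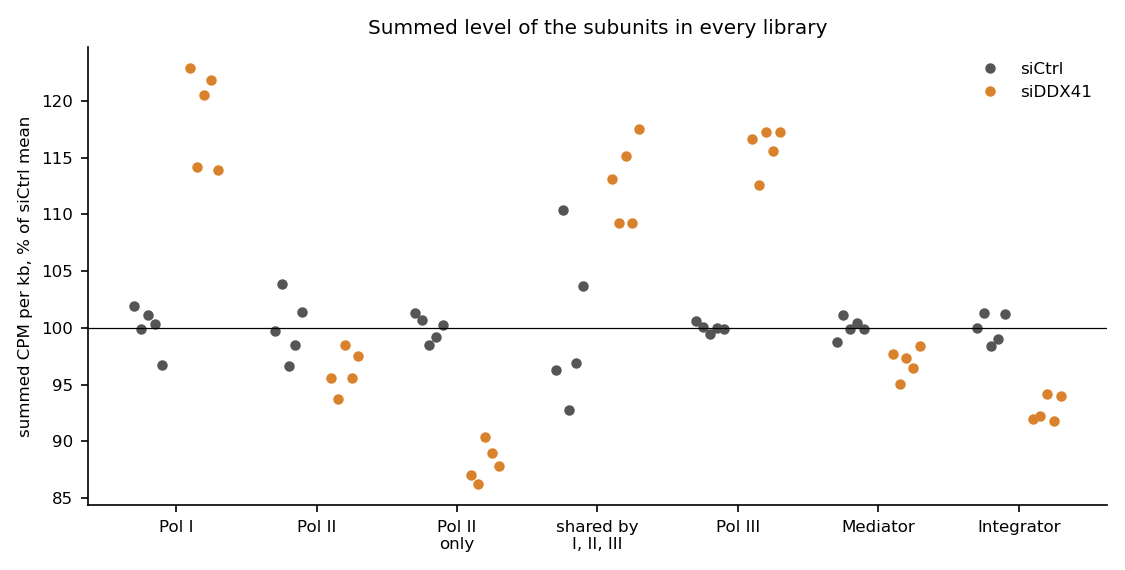
Summed CPM per kilobase of exon of each complex in every library, as a percent of the siCtrl mean (y axis, not from 0), with grey points for siCtrl, orange points for siDDX41 and a line at the control mean. Pol I and Pol III libraries of siDDX41 lie above all controls, and those of Pol II alone and Integrator lie below. Those of Mediator lie narrowly below, which depends on MED21.

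Factors that work with these complexes were counted in the same fit, against the same 30.3% up and 32.1% down, and brackets after a left-out library hold the adjusted p without it. Among factors that assemble the polymerases in the cytoplasm, 8 of 13 rose and 1 fell, with a median log2 fold change of 0.19. URI1, a prefoldin-like chaperone, rose with 0.37, GPN3, a GTPase that helps import Pol II, with 0.50, and PDRG1, another prefoldin-like protein, fell with -0.31. Of the Pol I factors, 3 of 6 rose and 1 fell (median 0.049), and 1 rose without siCtrl replicate 1. TAF1B and TAF1C of the promoter selectivity factor rose with 0.41 and 0.15, although the call of TAF1C was lost without siCtrl replicate 1 (0.0108), and UBTF, which coats active ribosomal genes, fell with -0.49. Of the Pol III factors, 6 of 15 rose and 4 fell (median 0.068). GTF3C2, of the factor that binds transfer RNA genes, fell with -1.09, MAF1, the repressor of Pol III, fell with -0.65, and GTF3C6 and GTF3C4 rose with 0.41 and 0.27. CRCP, a Pol III subunit outside the symbol rule, had -0.0091 and was not called.

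Of the general transcription factors of Pol II, 7 of 29 rose and 7 fell (median 0.005), with CCNH, the cyclin of TFIIH, at 0.45, GTF2A2 at 0.20, TAF6 at -0.27 and GTF2F2 at -0.32. Pausing and elongation factors had 11 of 27 up and 12 down (median 0.031). CTR9 of the PAF complex and the cyclin gene CCNT2 rose with 0.30 and 0.32, while MEPCE, which caps 7SK RNA, and RTF1 fell with -0.58 and -0.37. Cleavage and polyadenylation factors were balanced at 5 up and 5 down of 18 (median -0.0053), with CSTF2 at 0.33, RBBP6 at 0.26, CPSF4 at -0.34 and CSTF1 at -0.30. Without siCtrl replicate 2, 4 or 5 or siDDX41 replicate 4, 3 of these factors rose. Integrator partners gave 2 up, NABP1 at 0.52 and PPP2CA at 0.11, and 2 down, INIP at -0.27 and NABP2 at -0.15, of 6. The call of PPP2CA was lost without siCtrl replicate 5 (0.0149) or siDDX41 replicate 4 (0.0133), leaving 1 partner up. With a GC trend removed, PPP2CA (0.0673) and NABP2 (0.0699) were not called and PPP2R1A was called up (0.00554), so 2 partners were up. Among the mitochondrial transcription genes, POLRMT, the mitochondrial polymerase, and TFB2M rose with 0.59 and 0.17, and 0 of 4 fell in the edgeR fit. At an unadjusted p under 0.05, 0 of the 4 fell as well, beside 5940 of all 16143 tested genes, and DESeq2 called 0 down. The call of TFB2M was lost without siDDX41 replicate 1 (0.0144) or siDDX41 replicate 4 (0.0150), which left 1 mitochondrial gene up, and with a GC trend removed (0.0172).

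Among the members, those called up had shorter gene models than the rest, which was not so over all tested protein-coding genes. The median exon length was 3894 bases for members called up, 5398 for those called down and 5456 for those not called, and the median gene span was 16176, 33615 and 34424 bases. The canonical transcripts had a median of 6, 14 and 10.5 exons, and a median GC content of 49.00%, 48.2% and 44.8%. Over all tested protein-coding genes, the median number of exons was 9 for genes called up and 9 for genes called down, and the median GC content was 45.8% and 50.6%. For all tested protein-coding genes called up, called down and not called, the median exon length was 5656, 5624 and 5257 bases and the median span 39231, 36030 and 33285 bases. Medians also differed by complex, with an exon length of 3190 bases in Pol II and 6618 in Integrator, where 0 genes rose. These medians were not tested.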

How the data were processed

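Counts per gene were deposited by the authors, 1 table per library: reads were demultiplexed with bcl2fastq 2.19, aligned with STAR 2.7 to hg38 and counted with featureCounts 1.6, per the submitters' notes and the study's methods. The libraries were made with a stranded mRNA kit, per the study's methods. Strand and multi-mapping settings of the counting are not given in the sources used here. Here, genes were filtered with filterByExpr, scaled with TMM and tested with edgeR 4.0.16 (R 4.3.3; robust quasi-likelihood fit, Benjamini-Hochberg over all 16143 tested genes, called at an adjusted p under 0.01), 5 siDDX41 against 5 siCtrl libraries with no covariate. DESeq2 1.42.0, other scalings, filters and thresholds, the replicate number as a block and leaving out each library were alternatives. Symbols, exon lengths and GC came from GENCODE 44, which is later than the authors' annotation, and 15936 tested genes had a match. Total counts ranged from 21807041 to 24896398 per library, with a biological coefficient of variation of 3.65%. Named members were chosen as follows: POLR1A, POLR2A, POLR3A, MED14, INTS1 and INTS11 from general knowledge of the complexes, the paralog pairs, and in each complex up to 3 called up with the largest and up to 3 called down with the most negative change among members of at least 1 CPM. Companion lists named up to 2 called genes with the smallest adjusted p in each direction. Members named for a count of 5 or fewer, and those named with a change outside this rule, were chosen after their values were seen. The members and lists were chosen with earlier results of these data known. The code was tested on simulated counts. Python and pandas made the tables and matplotlib the figures.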

Additional observations from a re-analysis of the deposited data

Results flagged for a closer look

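In 82 groups of 5 libraries examined for a value far from the rest, 6 stood out, and chance marks about 1 in 20 groups. POLR3A in siCtrl replicate 3 was the highest of its group at 68.8 CPM, with 65.8 CPM next to it. MED12 in siDDX41 replicate 4 was the lowest of its group at 81.5 CPM, with 88.3 CPM next to it. INTS6 in siDDX41 replicate 5 was the lowest of its group at 34.1 CPM, with 36.2 CPM next to it. INTS6L in siCtrl replicate 2 was the lowest of its group at 10.4 CPM, with 12.01 CPM next to it. POLR2J3 in siCtrl replicate 1 was the highest of its group at 1.59 CPM, with 1.26 CPM next to it. POLR3F in siDDX41 replicate 1 was the highest of its group at 21.4 CPM, with 19.3 CPM next to it. These values lay in several different libraries. The part of single libraries in these values was not tested.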

How the results depend on the processing

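Over 17 other fits, 40 of the 48 called subunit genes were called in each, and 0 calls changed direction. A threshold at an absolute log2 fold change of 0.25 left 9 of 74 tested members up and 15 down. Of all tested genes, it left 21.1% up and 25.4% down. By complex, the counts up and down were 3 and 0 of 7 in Pol I and 2 and 5 of 13 in Pol II. They were 2 and 1 of 10 in Pol III, 2 and 7 of 29 in Mediator, and 0 and 2 of 15 in Integrator. In the companion lists this threshold left, up and down, 0 and 1 of 3 CDK8 partners and 2 and 5 of 29 general factors. It left 4 and 4 of 27 elongation factors, 1 and 1 of 6 Pol I factors and 5 and 3 of 15 Pol III factors. For assembly factors the counts were 6 and 1 of 13, for Integrator partners 1 and 1 of 6. For cleavage factors they were 3 and 4 of 18, and for mitochondrial genes 1 and 0 of 4. An adjusted p under 0.05 gave 2 Pol III genes down, 1 Integrator gene up, 2 CDK8 partners up and 2 Pol I factors down. At that threshold, 4890 to 5811 of the 16143 tested genes were up and 5178 to 5940 down. These bounds are the counts at an adjusted p under 0.01 and at an unadjusted p under 0.05. A floor of 5 CPM gave 2 Pol III genes down, and both that floor and library totals gave 2 Pol I factors down and 3 cleavage factors up. With shared subunits counted apart, Pol I had 0 down and Pol II 2 up. The main fit called 30.3% of all tested genes up and 32.1% down, and the shares in the other fits are not given here. Leaving out each library in turn gave 0 to 1 Integrator genes up and 4 to 6 down, 1 to 3 Pol I factors up, 3 to 5 cleavage factors up, 0 to 2 CDK8 partners up, 1 to 2 Integrator partners up and 1 to 3 mitochondrial genes up. Further alternatives were chosen after seeing the data. Removing a GC trend in each library gave 2 Pol I factors down, 1 Integrator partner down, 1 mitochondrial gene up and a log2 fold change of 0.021 for INTS11. Leaving out members that share exon bases with another counted gene gave 3 Pol II genes up. The INTS6 log2 fold change, near 0 throughout, turned negative with library totals (-0.00178), the 5 CPM floor (-0.00684), the GC trend removed (-0.054) and without siCtrl replicate 2, and ran over left-out libraries from -0.00344 to 0.0322. The cause of these shifts was not tested. Same-numbered libraries had correlations of deviations from -0.052 to 0.045, so no shared deviation by number was seen. Libraries of different numbers were not compared, so this cannot show whether same-numbered libraries were handled together. With the replicate block, 22 members rose and 24 fell, 22 and 23 of them called in the fit without it. The strand setting limits members opposite other genes.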
